A study of Mus musculus with 2 samples.

Results

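The complement components and regulators described here are the 9 genes C1qa, C1qb, C1qc, C2, C3, C4b, Cfb, Cfi and Cd55, out of 20017 named genes on the array. They were taken by name, as a list of components and regulators, and every gene probe whose accession belongs to one of them was used. All 9 had a probe well above background on both arrays, with 10 probes in all, 8 genes having 1 probe each and C3 having 2.

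The complement system is a cascade of plasma and membrane proteins that marks targets for clearance and can form pores in them. Its classical arm starts with the recognition molecule C1q and runs through C4 and C2, its alternative arm amplifies through factor B, and both arms meet at C3. Soluble and membrane-bound regulators, such as factor I and CD55, limit the cascade on host cells. The liver makes most of the plasma proteins, macrophages make C1q, and kidney cells make several components locally.

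RNA came from micro-dissected glomerular regions of the kidney of male C57BL/6J mice. Mice in both groups had been made diabetic at 8 weeks of age with streptozotocin (STZ), a drug toxic to pancreatic beta cells, given in citrate buffer, and were killed at 32 weeks, so no comparison with nondiabetic tissue was made here. WT+STZ stands for wild-type mice, and TG+STZ for transgenic mice labelled as overexpressing Sirt1, an NAD-dependent deacetylase. The title of the study places Sirt1 in the renal tubule, while the promoter of the transgene and the number of mice behind each array are not given in the sources used here. There was 1 array for each group, so differences are given without replicates and the groups could not be tested against each other.

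Values are processed signals in intensity units and the scaled log2 difference, TG+STZ minus WT+STZ, after subtraction of the 75th percentile of gene spots from each array. The error printed after ± is that of the scanner software for the hybridisations concerned and does not cover the spread between mice. It was 0.20 for each member with 1 probe. Of the gene spots, 75.04% of those for WT+STZ and 76.26% of those for TG+STZ lay well above background, and none was saturated. Over the 15975 genes measured on both arrays differences centred on a median of 0.00, with SD 0.26. Sirt1 itself read 2625 units for WT+STZ against 2977 for TG+STZ (0.10 ± 0.20), from 1 probe that may or may not read the transgene, so it checks no label. All 8 podocyte markers, 6 mesangial markers and 6 glomerular endothelial markers listed were well above background on both arrays, and so were all 6 markers each of the proximal tubule and the distal nephron. Tubule RNA was therefore present beside glomerular RNA. In WT+STZ the summed signal was 554790 units for the proximal tubule markers and 351056 for the distal nephron markers. It was 25459 units for the podocyte, 12721 for the mesangial and 21893 for the glomerular endothelial markers. Signals of different probes do not give the share of each tissue, which was not measured. In such mixed tissue, fewer cells of a type and less RNA per cell cannot be told apart.

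The regulators Cfi and Cd55 and the protease gene C2 lay furthest from 0 among the 9 genes, and they pointed in different directions. Cfi was 1.61-fold lower on the TG+STZ array and C2 was 1.45-fold lower, whereas Cd55 was 1.48-fold higher. C4b was 1.26-fold higher and C3 was 1.12-fold higher. The 3 C1q genes and Cfb differed by less than the scanner error. In all, 3 of the 9 genes were higher and 6 were lower, with a median of -0.06, beside 50.9% of all measured genes that were higher. At a threshold of 1.5-fold, Cfi alone was lower, where 1.91% of all genes were, and none of the 9 was higher, where 1.75% of all genes were. None was 2-fold apart, a size reached by 0.989% of all genes. Among the 7666 genes at least as bright as the dimmest member, 1.58% were 1.5-fold apart in either direction. Beyond the scanner error lay C3, C4b and Cd55 on the higher side and C2 and Cfi on the lower side, against 10.4% and 13.3% of all genes on those sides. These counts over 9 genes are too small to set the list apart from the array as a whole.

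**Figure D1:**
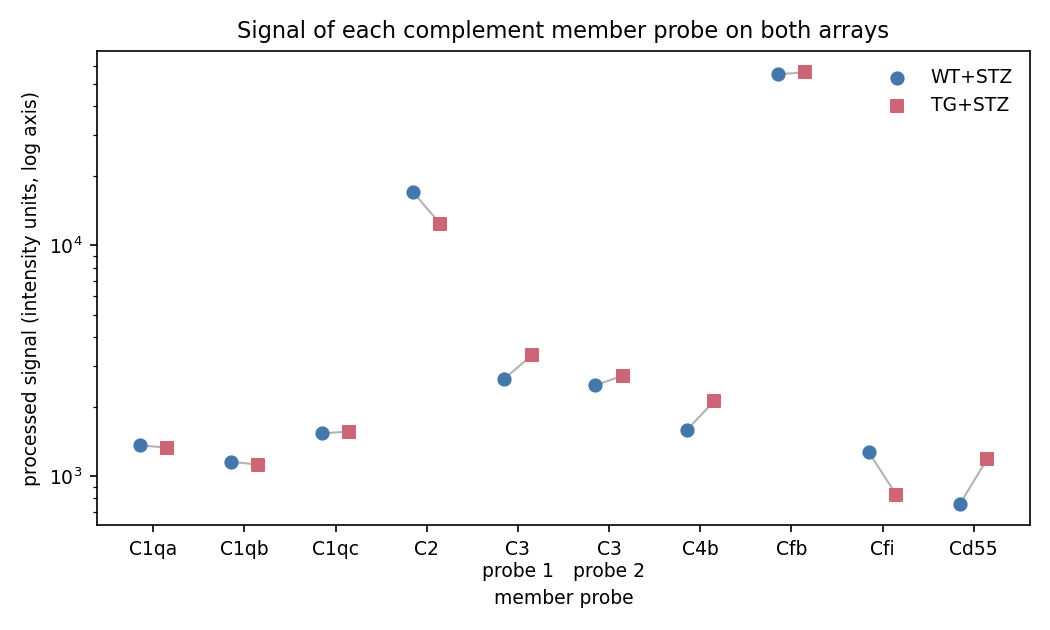
Processed signal (intensity units, log axis) of the 10 probes of the 9 member genes, with circles for the WT+STZ array and squares for the TG+STZ array, 1 array each. The lines of Cd55, C4b and both C3 probes slope upward, those of Cfi and C2 slope downward, and those of Cfb and the C1q genes are nearly flat.

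C1qa, C1qb and C1qc encode the A, B and C chains that assemble into C1q, which binds antibody complexes and other ligands. C1qa read 1360 units in WT+STZ against 1328 in TG+STZ, a scaled difference of -0.11 ± 0.20. C1qb read 1156 and 1121 units, a scaled difference of -0.12 ± 0.20. C1qc read 1534 and 1558 units, a scaled difference of -0.06 ± 0.20. The unscaled signal of C1qc was thus slightly higher on the TG+STZ array and its scaled value slightly lower, and none of the 3 genes stood apart from 0 by more than the scanner error. The C1qc probe was printed at 10 spots, of which 2 were marked as outliers and left out. The remaining 8 spots gave differences from -0.09 to -0.03, with an SD of 0.02 between spots. In the RefSeq gene order of assembly GRCm38.p6 the 3 genes lie side by side on chromosome 4, between Ephb2 and Epha8, at -0.18 ± 0.20 and 0.08 ± 0.35.

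C1q is made by macrophages, so macrophage markers are given beside it. Of 15 listed markers 13 were measured, 3 higher and 10 lower, with a median of -0.13 and a range from -0.50 to 0.36. Their summed signal was 13141 units in WT+STZ against 12796 in TG+STZ. Lyz2, a lysozyme, stood at -0.50 ± 0.20, Ms4a7 at -0.40 ± 0.20 and Mrc1, the mannose receptor, at 0.36 ± 0.21. The C1q genes, with a median of -0.11, lay near the median of these markers. Csf1r, the receptor of the macrophage growth factor, read 2431 and 2276 units. Cd163, a receptor of some tissue macrophages, was not well above background on either array. The part of macrophage content in the C1q values was not tested.

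Promoter sequence from the RefSeq table of GRCm38.p6 was at hand for 4 of the 9 genes, C1qb, C1qc, C3 and Cd55. The 250 bases before each start were searched on both strands for 5 motifs. These were GAGGAA, the core bound by the myeloid factor PU.1, TTNNGCAA for C/EBP factors, TTCNNNGAA for STAT factors, AAANNGAAA for interferon response elements and GGANNTTCC for kB-like sites. The C1qb and C1qc promoters are shown because the C1q genes lie side by side and read alike. Both lie on the minus strand and are written in the direction of transcription, C1qb from chr4:136886201-136886450 and C1qc from chr4:136892915-136893164, with motif matches in capitals.
C1qb: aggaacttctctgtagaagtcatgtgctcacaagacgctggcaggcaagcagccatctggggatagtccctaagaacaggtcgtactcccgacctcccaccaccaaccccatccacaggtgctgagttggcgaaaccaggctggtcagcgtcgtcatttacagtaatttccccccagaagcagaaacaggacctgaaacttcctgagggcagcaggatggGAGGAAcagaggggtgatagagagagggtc
C1qc: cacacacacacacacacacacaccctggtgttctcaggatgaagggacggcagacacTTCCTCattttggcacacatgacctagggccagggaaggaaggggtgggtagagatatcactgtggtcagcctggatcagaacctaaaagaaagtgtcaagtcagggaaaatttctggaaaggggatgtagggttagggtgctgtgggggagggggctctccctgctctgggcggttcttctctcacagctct
The match in C1qb begins 30 bases before the start, on the gene's own strand, and the match in C1qc begins 193 bases before the start, on the opposite strand. Both are the PU.1 core, which 23.4% of 32536 promoter windows of this length hold, so its presence in both says little about these genes. None of the other 4 motifs was found in either window.

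C2 and C4b encode the proteins whose fragments together form the C3 convertase of the classical and lectin pathways, and they differed in opposite directions. C2 encodes the serine protease part. It read 16995 units in WT+STZ against 12346 in TG+STZ, a scaled difference of -0.54 ± 0.20. The gene thus read lower in TG+STZ beyond the scanner error, by just under 1.5-fold. C4b encodes the mouse complement protein C4, which attaches to targets. It read 1578 units in WT+STZ against 2108 in TG+STZ, a scaled difference of 0.34 ± 0.20. C4b has a close copy, C4a, that had no probe named here, and it is not known here whether the C4b probe also reads C4a.

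Cfb encodes factor B, the protease of the alternative pathway and a relative of C2. Its signal was 55072 units in WT+STZ against 56134 in TG+STZ, a scaled difference of -0.05 ± 0.20. Cfb and C2 are next to each other in the RefSeq gene order of chromosome 17, in the major histocompatibility region that also holds C4b. Their differences were 0.49 ± 0.29 apart, C2 being the lower, so this pair did not read alike, each gene resting on 1 probe at 1 spot. The outer neighbours stood near 0, Nelfe at 0.07 ± 0.20 beside Cfb and Zbtb12 at 0.11 ± 0.20 beside C2. Around C4b, Tnxb stood at -0.03 ± 0.20 and Cyp21a1 at -0.21 ± 0.21.

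C3 encodes the central component, whose cleavage products tag surfaces and signal inflammation. Its first probe, printed at 10 spots, had mean signals of 2638 units in WT+STZ against 3332 in TG+STZ, a scaled difference of 0.26 ± 0.20. The 10 spots ran from 2446 to 2793 units in WT+STZ and from 3119 to 3558 in TG+STZ, without overlap. Their differences ran from 0.21 to 0.28, with an SD of 0.02. The second probe, at 1 spot, read 2474 and 2723 units, a scaled difference of 0.06 ± 0.20. The probes were 0.20 apart, about 8 times the SD between spots of the first probe but no more than the scanner error of either probe. The second probe alone would place C3 within the scanner error. Averaged over both probes, C3 stood at 0.16 ± 0.14. Spots of an array share 1 RNA preparation and 1 hybridisation, so their close agreement is no measure of agreement between mice.

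**Figure D2:**
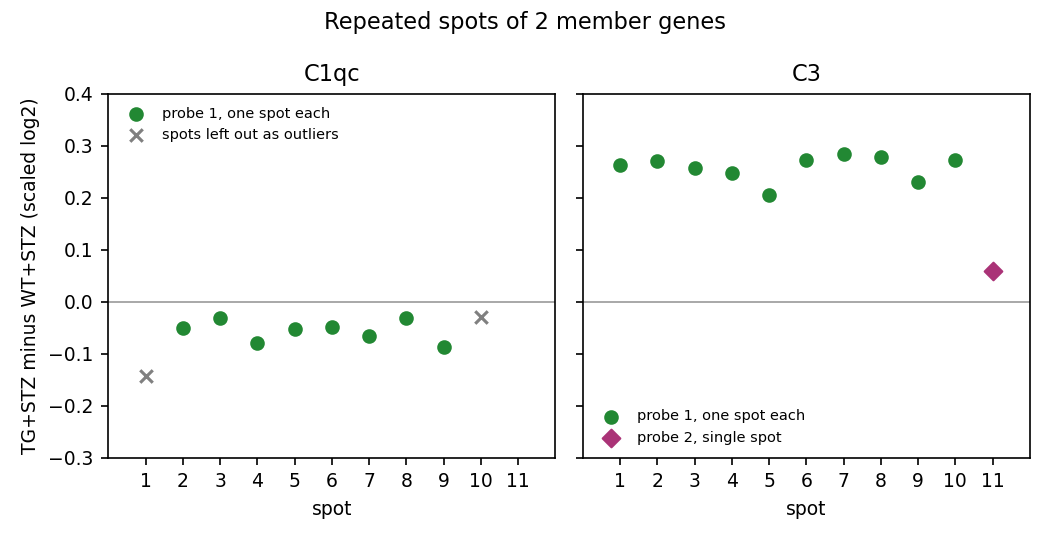
Scaled log2 difference, TG+STZ minus WT+STZ, of each spot of the C1qc probe (left) and of the 2 C3 probes (right), with crosses for 2 C1qc spots left out as outliers and a diamond for the single spot of the second C3 probe. All 10 spots of the first C3 probe lie between 0.21 and 0.28, above the second probe at 0.06, and the 8 C1qc spots used lie between -0.09 and -0.03.

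The C3 promoter is shown because C3 is the member at which the pathways meet and it has an entry in the table. It is on the minus strand, chr17:57228137-57228386 of GRCm38.p6, with the single motif match in capitals.
C3: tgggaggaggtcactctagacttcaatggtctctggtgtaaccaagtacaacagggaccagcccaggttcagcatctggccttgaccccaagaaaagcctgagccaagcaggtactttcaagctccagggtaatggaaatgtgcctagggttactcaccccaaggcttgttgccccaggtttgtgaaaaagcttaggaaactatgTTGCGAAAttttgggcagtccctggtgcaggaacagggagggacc
The match, TTGCGAAA on the gene's strand, is the C/EBP motif on the opposite strand and begins 45 bases before the start. C/EBP factors are known regulators of acute-phase genes. This motif is in 9.57% of the promoter windows. The STAT, interferon, kB-like and PU.1 letters were not found in this window.

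Cfi encodes factor I, the soluble protease that cuts C3b and C4b into inactive forms with the help of cofactors. It read 1267 units in WT+STZ against 832 in TG+STZ, a scaled difference of -0.69 ± 0.20. It was the lowest of the 9 genes and the one member at least 1.5-fold apart. Under the 11 other settings that were run, Cfi lay between -0.71 and -0.65, past 1.5-fold in each. Its neighbours on chromosome 3 were near 0, with Gar1 at 0.11 ± 0.20 and Pla2g12a at 0.04 ± 0.20. Of all measured genes, 2.5% lay at least as far from 0 as Cfi, and 1.1% of those at least as bright as the dimmest member. The value rests on 1 probe at 1 spot.

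Factor I needs cofactors to act. Among the genes for them, C4bp stood at 0.17 ± 0.28, Cr1l at 0.10 ± 0.20 and Cd46 at 0.09 ± 0.33, each of these within its error. C4bp and Cd46 were dim, with 24.3 and 16.01 units in WT+STZ.

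Cd55 encodes decay-accelerating factor, a membrane protein that breaks up C3 convertases. It read 759 units in WT+STZ against 1188 in TG+STZ, a scaled difference of 0.57 ± 0.20, the highest of the 9. It lay just under 1.5-fold, and with each array centred on its median probe or on the spike-in probes it lay just over it, at 0.59 under both. Cd55b, its neighbour and close copy on chromosome 1, stood at 0.41 ± 0.14, from probes at 0.24 and 0.59. It is not known here whether a probe of one also reads the other. The Cd55 promoter is shown because Cd55 is the highest member. It is on the minus strand at chr1:130462745-130462994 of GRCm38.p6, and none of the 5 motifs was found, so it has no capitals.
Cd55: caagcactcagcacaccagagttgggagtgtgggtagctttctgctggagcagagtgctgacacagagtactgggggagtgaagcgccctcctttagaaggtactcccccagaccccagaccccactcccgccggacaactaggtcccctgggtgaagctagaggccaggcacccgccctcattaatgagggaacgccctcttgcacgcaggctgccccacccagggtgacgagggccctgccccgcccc

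The wider complement list held 53 genes in 7 roles, chosen by role and including the 9 members. Of these, 51 had a named probe and 43 were measured, 22 higher and 21 lower, with a median of 0.00 and 8 higher and 7 lower by more than their scanner error. Cfd, higher, and Cfi, lower, were the genes past 1.5-fold. In the classical pathway 4 of 9 measured genes were higher. Beside the members, C1s1, a protease of the C1 complex, stood at 0.16 ± 0.20 and the other 3 C1r and C1s genes between -0.02 and 0.05. In the lectin pathway Masp2, the protease that cleaves C4 and C2, read 181 and 128 units and stood at -0.58 ± 0.15, with its probes at -0.61 and -0.56. Colec11, a collectin, stood at 0.26 ± 0.20 and Mbl2, a mannose-binding lectin, at -0.19 ± 0.21. Masp2 was thus lower, as was its substrate C2, while the other substrate, C4b, was higher.

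In the alternative pathway Cfd, which encodes factor D, the protease that cleaves factor B, read 41.2 units in WT+STZ against 1225 in TG+STZ, at 4.82 ± 0.22. Fat cells secrete factor D. Of 8 fat cell markers 5 were measured and all 5 were higher, with a median of 0.34. Their summed signal was 110416 units in WT+STZ against 129211 in TG+STZ, most of it from Pck1, which the kidney also makes. Retn, a hormone of fat cells, stood at 2.84 ± 0.24, Cidec at 1.28 ± 0.18 and Fabp4 at 0.34 ± 0.20. Adipoq, the hormone adiponectin, was well above background on the TG+STZ array alone, at 156 units against 7.07, at least 13.9-fold higher. Such a bound sets the bright signal against the higher of the dim probe and the lowest signal counted as well above background. The part of fat cell RNA in the Cfd, C3 and other complement values was not tested. Cfp, which stabilises the alternative convertase, stood at -0.02 ± 0.20.

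Of the 7 terminal components, which form the membrane pore, 3 were measured. C6 stood at -0.34 ± 0.26, C8g at -0.28 ± 0.14 and C8a at 0.07 ± 0.14. C8b and C9 were not well above background on either array. Hc, which encodes C5, was well above background on the TG+STZ array alone, at 16.3 against 7.43 units. Its scaled TG+STZ reading was 1.45-fold above the lowest WT+STZ signal counted as well above background. That ratio leaves out the scanner error, so at a signal this dim it is no minimum. C7 had no named probe. Among fluid regulators Cfhr2 stood at 0.37 ± 0.14, from probes at 0.17 and 0.56, Clu, clusterin, stood at -0.17 ± 0.20 and Serping1, the C1 inhibitor, at 0.14 ± 0.14. Of the 6 membrane regulators 5 were higher, Cd55 and Cd55b by more than their error. Of 9 measured receptors 6 were lower, with Cr2 at -0.23 ± 0.15, the integrin genes Itgb2 and Itgax at -0.21 ± 0.20 and -0.15 ± 0.20, and C1qbp at 0.05 ± 0.20. C5ar1, the C5a receptor, passed the background flag in WT+STZ alone, at 15.3 against 10.03 units. Its scaled readings were 1.61-fold apart, TG+STZ being the lower, and so near background this ratio is no minimum. Fcnb, Colec10 and Masp1 were not well above background on either array.

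**Figure D3:**
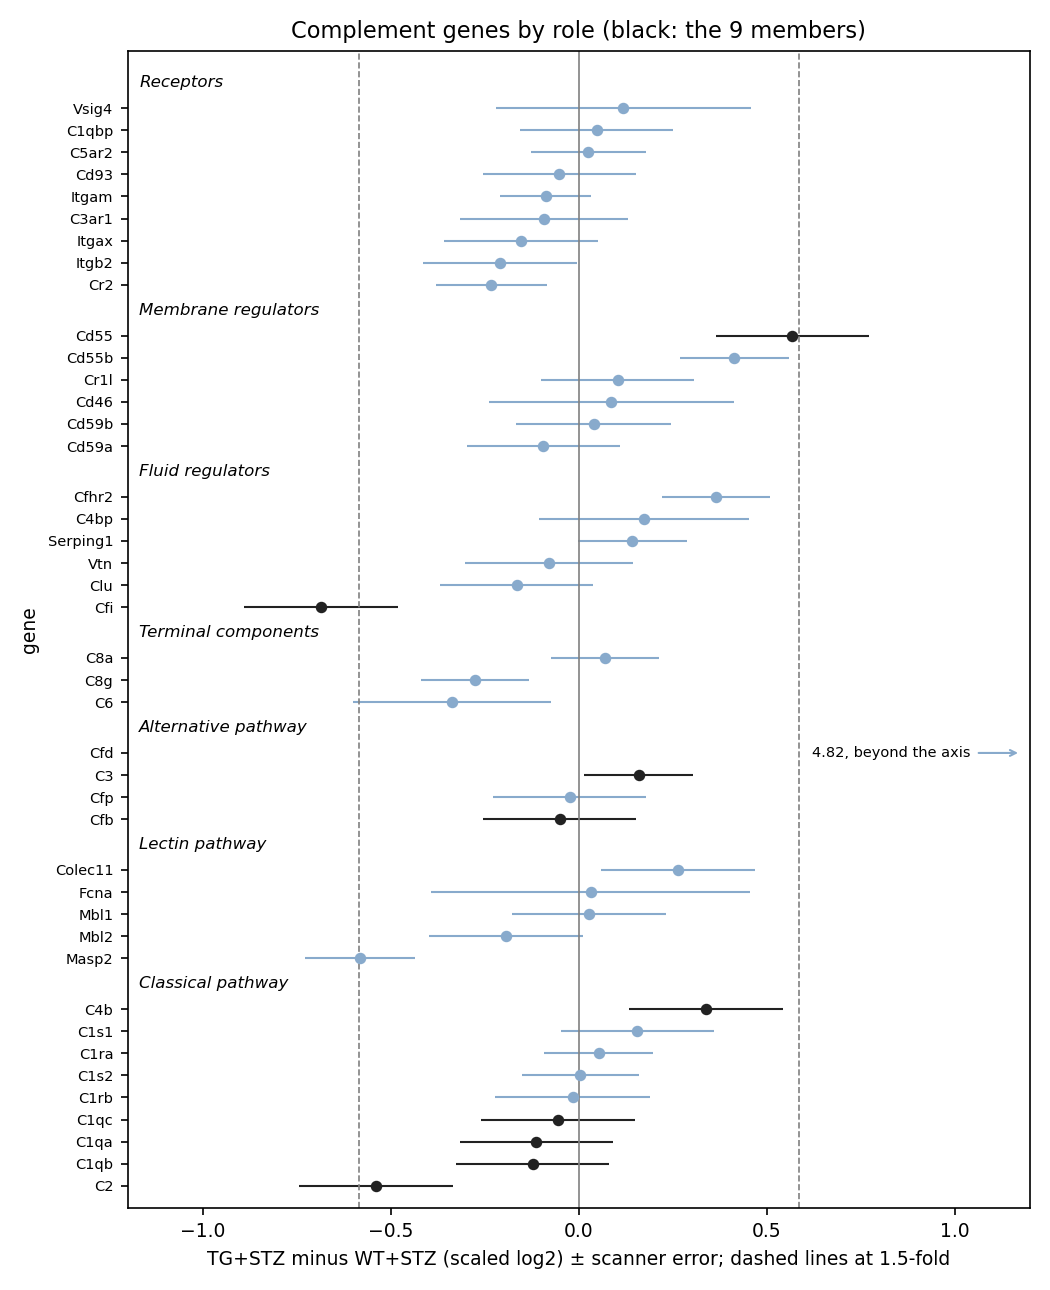
Scaled log2 difference, TG+STZ minus WT+STZ, of 42 measured complement genes by role, with bars of 1 scanner error, black for the 9 members and dashed lines at 1.5-fold. Cfi lies beyond the lower line, C2 and Masp2 just inside it and Cd55 just inside the upper line, while Cfd at 4.82 lies beyond the axis.

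Other gene programmes differed on the same 2 arrays. Interferon induces several complement genes, among them C2 and Cfb. The interferon list stood lower in 8 of 10 genes (median -0.43, summed signal 12834 units in WT+STZ against 11703 in TG+STZ), with Oas1a at -0.88 ± 0.14, Usp18 at -0.73 ± 0.20 and Ifit1 at -0.61 ± 0.20. Irf1, a transcription factor that interferon gamma induces, stood at -0.02 ± 0.20. Of the complement genes just named, C2 stood at -0.54 and Cfb at -0.05. Fibroblasts make C3 and C4. Of 8 fibroblast markers 7 were higher, with a median of 0.50, a summed signal of 15933 units in WT+STZ against 22261 in TG+STZ, and Clec3b at 1.096 ± 0.24, Dpt at 0.59 ± 0.22 and Mfap5 at 0.56 ± 0.20. Of 6 measured liver markers all were lower, 2 of them by more than their scanner error, with a median of -0.14. Apoa1 was not well above background on either array. Acute-phase genes had a median of -0.04 over 5 measured, from -0.10 to 0.81, and Saa2, Saa3 and Orm1 were not well above background on either array. Lymphocyte markers were lower in 7 of 7 with a median of -0.44, and the 3 neutrophil markers measured were lower with a median of -0.64. Medians of the podocyte, mesangial, glomerular endothelial, proximal tubule and distal nephron lists lay between -0.13 and -0.03. The part of any of these lists in the member values was not tested.

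**Figure D4:**
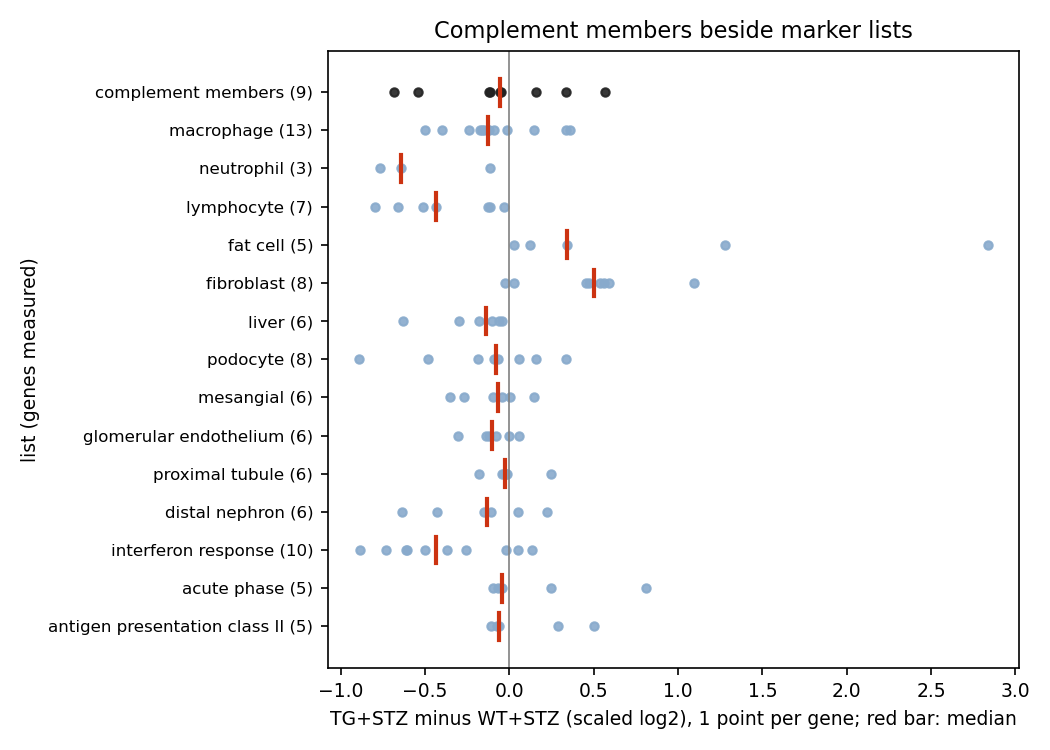
Scaled log2 difference, TG+STZ minus WT+STZ, of each measured gene of the complement members and of 14 marker lists, 1 point per gene and a red bar at the median. The complement members spread to both sides of 0 around a median of -0.06, fibroblast markers have a median of 0.50, and interferon response and lymphocyte genes have medians of -0.43 and -0.44.

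With 2 arrays each gene has 1 difference, so no measure of likeness between genes across samples was computed. The number of arrays limits the precision of each value given here, and a difference beyond the scanner error is not shown to differ between the genotypes.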

How the data were processed

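One-colour Cy3 labelled RNA was hybridised to 1 Agilent array per group. The authors deposited processed intensity per spot, already background-subtracted and detrended within the array by Feature Extraction 10.7.1.1 per the file headers (10.3.1.1 per the submitters' processing notes). The deposited value table held the same intensity at all 44397 spots of each array. No step between arrays had been applied, and both arrays lie on 1 slide read in 1 scan.

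From these, log2 of the processed signal minus the 75th percentile of gene spots of the same array was computed. Outlier spots (114 and 109) were left out and spots of a probe averaged. Probes were named through RefSeq accessions of GRCm38.p6, and 26412 of 39429 probes matched a symbol. Unmatched probes were not used. A gene's mean took the probes that passed the well-above-background flag, and were unsaturated, on each array. The error combines the scanner error of both arrays over the probes. A median moved with a setting where it shifted by more than 1 standard error of a median built from these errors. The array headers name mm9, the promoter table GRCm38.p6, and no array coordinates were used.

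The members and lists were chosen with earlier results of these data known. The rule named each member, the 3 furthest genes and the highest signal of each complement role, undetected genes, and the 3 furthest genes of a marker list. Some genes of the lists are counted but not reported here by name. The last was printed for the macrophage, fat cell, fibroblast and interferon lists, and the other lists are given by medians. Chosen after seeing values were Csf1r, Adipoq, Cd163, Irf1, C1r and C1s genes, the cofactor genes of factor I, Serping1 and Cfp.

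The 11 alternatives were normexp background correction on spot medians (offset 50), quantile normalization, median centring, spike-in centring, a 75th percentile taken over detected probes, loess (span 0.3), the deposited value table, dim probes kept, a laxer detection flag, the brightest probe and outlier spots kept. A 2-fold threshold was also run, and leaving out Cfd was added after the data were seen. The steps were tested on simulated data. Tools were R 4.3.3 with limma 3.58.1, and Python 3.11.15 with pandas 2.3.3, numpy 2.4.6, matplotlib 3.10.9 and statsmodels 0.14.6.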

Additional observations from a re-analysis of the deposited data

How the results depend on the processing

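Each of the 9 member genes kept its sign under all 11 alternatives and moved by less than its scanner error. C3, at 0.159 ± 0.144, fell just inside that error under normexp (0.138), the percentile of detected probes (0.137), quantile normalization (0.140) and loess (0.143). The place of C3 beyond the scanner error thus depended on the setting. The count of members at least 1.5-fold apart was 1, and became 2 under median centring and 2 under spike-in centring, where Cd55 came to 0.59, and 0 at 2-fold. C3 stood at 0.26 by its brightest probe alone. The median of the wider complement list, 0.00, was -0.063 under normexp background correction (the cause was not tested) and -0.01 without Cfd. Its sign was not stable near 0, so no direction is given for it. The count of wider complement genes past 1.5-fold was 2, and became 4 without the filter on dim probes, 4 under the laxer flag, 3 under median centring, spike-in centring, the brightest probe and the percentile of detected probes, and 1 at 2-fold. Over all genes, 280 were at least 1.5-fold higher and 305 lower, against 109 and 149 under normexp, 578 and 671 under the laxer flag, and 741 and 849 without the filter on dim probes, so the background shares depend on these choices. Normexp brought the fibroblast median to 0.29, and the laxer flag brought the fat cell median to 1.28. The acute-phase median became 0.10 under the laxer flag and 0.53 with no filter. The largest shift of the median of all genes was to -0.05, under normexp. No paired analysis was possible because each group has 1 array and the labels carry no replicate numbers, and for the same reason no replicate could be left out and no slide block fitted.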

Other observations

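Genes of antigen presentation by class II molecules were also measured. The H2 genes among them lie in the same major histocompatibility region as C2, Cfb and C4b. H2-Ab1, H2-Eb1 and the invariant chain gene Cd74 stood at -0.11 ± 0.14, -0.07 ± 0.20 and -0.06 ± 0.20. H2-Aa, the alpha chain that pairs with the product of H2-Ab1, stood apart at 0.50 ± 0.20 from 1 probe, with 2424 units in WT+STZ against 3623 in TG+STZ. Hp, which encodes the haemoglobin-binding protein haptoglobin, read 161 and 298 units and stood at 0.81 ± 0.21, while the acute-phase gene Saa1 stood at -0.04 ± 0.20.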
